A study of Mus musculus with 7 samples.

Results

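The 8 genes described here encode the writers and erasers of DNA methylation, Dnmt1, Dnmt3a, Dnmt3b, Dnmt3l, Uhrf1, Tet1, Tet2 and Tet3, which were picked by name, not by their values, from 25965 rows of a gene expression table. All 8 had a row, and 7 had enough reads to be tested among 13997 genes, Dnmt3l being the exception. RNA-seq was carried out on tissue cut from behind the last visible somite of female E9.5 mouse embryos of the FVB/N strain, called postsomitic mesoderm in the sample labels and presomitic mesoderm in the series title. The null group holds 4 libraries of genotype Smchd1 MommeD1/MommeD1, in which both copies carry the germline null allele MommeD1, and the wild-type (WT) group holds 3 libraries with genotype Smchd1 +/+. No other allele, transgene or treatment is given in the labels. The labels do not say whether a library is 1 embryo or a pool, so p-values measure the spread between libraries, which may be partly technical.

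Methyl groups on the cytosines of CpG dinucleotides are copied onto new DNA strands after replication by DNMT1, which UHRF1 brings to hemimethylated sites. DNMT3A and DNMT3B place methylation at sites that lack it, and DNMT3L, which has no catalytic activity of its own, stimulates them, mainly in germ cells and the early embryo. The TET enzymes oxidise 5-methylcytosine, the first step of active removal or of dilution over later cell divisions. In the mouse the body's methylation pattern is laid down around implantation and is then maintained as tissues form. SMCHD1 is a chromosomal protein of the SMC family, and in its absence many CpG islands of the inactive X chromosome are known to lack methylation. These data hold transcript levels only and no measure of methylation or protein.

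The 4 null libraries had 22137823 to 23847381 reads in listed genes and the 3 WT libraries 19622596 to 23548995. Those reads made up 34.3% to 37.4% of the scaling total in null libraries and 28.8% to 37.9% in WT libraries, the lowest being WT C at 28.8% and WT B at 31.2%. The deposited log2 RPM values (reads scaled to that total) were therefore 0.16 higher in null libraries for the median gene. Each library was centred on the median of its autosomal genes, which put the median change of all genes tested at -0.03, and RPM below means centred RPM unless called deposited. Smchd1 itself had 27.6 to 33.6 RPM in null libraries, against 95.7 to 104.4 RPM in WT libraries, and fell by 1.67 in log2 units (limma, adjusted p = 9.54e-05). All 10 markers of tailbud and presomitic mesoderm were detected, with summed levels of 343 to 405 RPM in null libraries and 279 to 386 RPM in WT libraries. Of these, 8 had centred changes above 0 and 2 below 0, with a median of 0.27, beside -0.03 for all genes tested. Among markers of other cell types, notochord genes summed to 33.7 to 41.9 RPM in null libraries, against 22.5 to 25.5 RPM in WT libraries. Hindgut genes summed to 64.6 to 74.3 RPM in null libraries, against 37.3 to 60.0 RPM in WT libraries. All 5 notochord genes and all 5 hindgut genes had changes above 0. Neural tube genes summed to 12.7 to 37.0 RPM in null libraries, against 21.2 to 57.7 RPM in WT libraries, and all 3 tested had changes below 0. The summed ranges of endothelial, primitive erythroid, surface ectoderm and primordial germ cell markers overlapped between groups, though all 5 endothelial markers had changes above 0. In each of these marker lists 0 genes were called. In bulk tissue, fewer cells of a type and less RNA per cell cannot be told apart.

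Null and WT tissue expressed the writers and erasers in the same order per kilobase of exon. None of the 7 tested genes passed an adjusted p of 0.05 (limma, Benjamini-Hochberg over all genes tested), with adjusted p-values of 0.352 to 0.983. By the same rule 7 of the 13997 genes (0.05%) were higher and 1 gene (0.00714%) was lower in null libraries, so few genes of any kind were called. Dnmt1 alone of the 7 had an unadjusted p under 0.05, in the lower direction, as did 6.71% of all genes tested, while 7.29% did so in the higher direction. Centred changes were below 0 for 4 of the 7 genes and above 0 for 3, and all 7 were above 0 on the deposited scale, where adjusted p-values ran from 0.415 to 0.724. The direction of most of these small changes thus depends on the scaling, and only for Tet2 did it stay the same under all 20 alternatives tried.

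The levels per kilobase of exon (RPM per kb, counting every annotated exon base once) were highest for the maintenance genes. Uhrf1 averaged 18.5 ± 0.50 RPM per kb in null libraries and 20.1 ± 1.41 in WT libraries, and Dnmt1 averaged 18.4 ± 0.19 in null libraries and 19.9 ± 1.13 in WT libraries (SD, n = 4 null and 3 WT here and below). These 2 genes could not be ordered, since their ranges overlapped in both groups. Dnmt3b followed at 9.92 ± 0.41 RPM per kb in null libraries and 9.93 ± 0.42 in WT libraries, then Dnmt3a at 5.56 ± 0.50 in null libraries and 5.43 ± 0.39 in WT libraries. Tet3 was the most abundant eraser at 3.30 ± 0.19 RPM per kb in null libraries and 3.56 ± 0.33 in WT libraries. Tet1 averaged 1.94 ± 0.34 RPM per kb in null libraries and 1.82 ± 0.23 in WT libraries, and Tet2 0.705 ± 0.202 in null libraries and 0.567 ± 0.156 in WT libraries. From Dnmt3b down to Tet2 the ranges of neighbouring genes did not overlap within either group. The annotation used for exon length extends Tet1, Tet2 and Tet3 past the ends of their listed rows, to 62908996, 133545139 and 83459084. The part of this in the levels and shares of the Tet genes per kb was not tested. The position of Tet3 depends on the length used: per kb of the principal transcript, Tet3 had 9.28 ± 0.54 RPM per kb and Dnmt3a 9.56 ± 0.85 in null libraries, while in WT libraries Tet3 had 9.99 ± 0.93 and Dnmt3a 9.34 ± 0.68. In RPM, with no length correction, Dnmt1 stood above 99.5% of all genes tested and Tet2 above 37.9%.

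**Figure D1:**
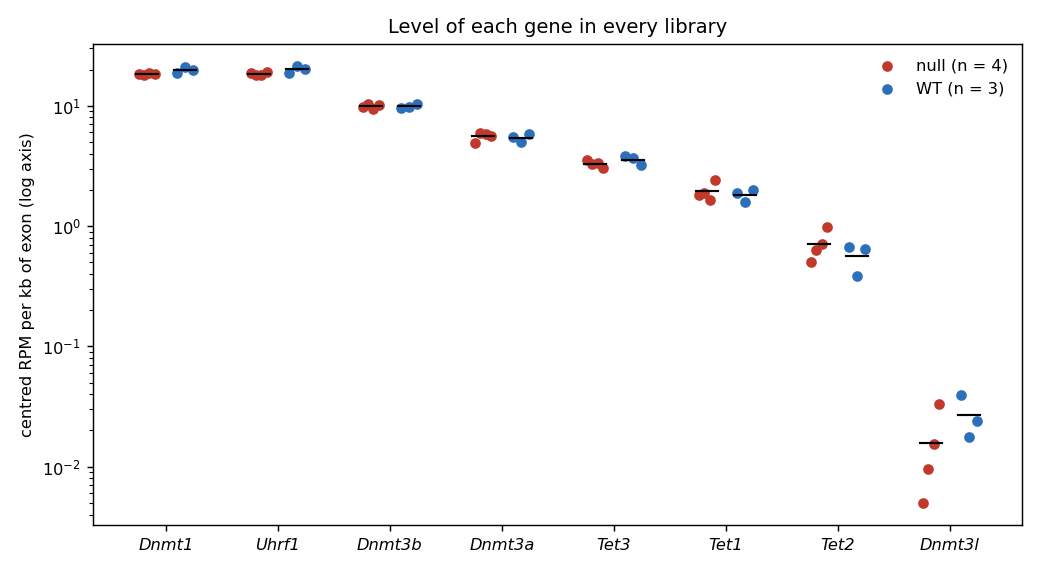
Level of the 8 genes in centred RPM per kb of exon (log axis), with 1 point per library, null libraries left of WT libraries and a bar at each group mean. The genes form a descending series of which Dnmt1 and Uhrf1, at 18.4 and 18.5 RPM per kb in null libraries and 19.9 and 20.1 in WT libraries, share the top place, and Dnmt3l rests on 1 to 8 reads per library.

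Dnmt1, the maintenance methyltransferase, lies on chromosome 9 from 20907206 to 20959888 on the minus strand, and Uhrf1, the hemimethylated-CpG reader that recruits it, on chromosome 17 from 56303321 to 56323486 on the plus strand (mm10). Among the members, this pair had the most similar profile over the 7 libraries (Pearson r = 0.96, a description over libraries of both groups). For that reason the promoter windows of both are shown, each 300 bases from 250 before to 50 after a RefSeq start site (GRCm38.p6, the assembly that mm10 names), read along the gene's strand. Capitals mark the E2F-type motifs found among the 4 searched, which were TTTCGCGC, TTTGGCGC, TTTCCCGC and TTTGCCGC on both strands, where E2F factors are known regulators of S phase genes. The Dnmt1 window is chr9:20952574-20952873 (minus strand) and the Uhrf1 window is chr17:56304063-56304362 (plus strand).
Dnmt1: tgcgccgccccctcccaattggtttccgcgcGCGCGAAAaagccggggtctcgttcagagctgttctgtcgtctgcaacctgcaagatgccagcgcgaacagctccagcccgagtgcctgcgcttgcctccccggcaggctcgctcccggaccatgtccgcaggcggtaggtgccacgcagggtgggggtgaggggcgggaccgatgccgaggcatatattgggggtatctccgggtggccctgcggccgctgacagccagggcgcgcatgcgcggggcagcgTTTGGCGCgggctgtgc
Uhrf1: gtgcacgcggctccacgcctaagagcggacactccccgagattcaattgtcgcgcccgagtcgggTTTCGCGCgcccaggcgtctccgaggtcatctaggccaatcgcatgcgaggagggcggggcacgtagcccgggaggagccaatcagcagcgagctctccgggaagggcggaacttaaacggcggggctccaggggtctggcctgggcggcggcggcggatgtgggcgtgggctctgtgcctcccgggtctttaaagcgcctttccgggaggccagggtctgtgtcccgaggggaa
TTTCGCGC stood on the opposite strand at base -219 from the Dnmt1 start used here, where it is read as GCGCGAAA. It stood on the gene's strand at base -185 from the Uhrf1 start used here. TTTGGCGC stood at base 33 after the same Dnmt1 start. Any of the 4 motifs occurred in 744 of 32851 promoter windows (2.26%), TTTCGCGC in 0.323% and TTTGGCGC in 0.514%. Each window held 33 CpG dinucleotides, against a median of 7 over all windows. Dnmt1 has 3 listed starts and Uhrf1 has 2, and their other windows and those of the other 6 genes held none of the 4 motifs. For both genes the start used is the listed one furthest downstream, which is also the only one whose window held a motif. The share of 2.26% is per window and makes no allowance for the 3 and 2 windows of these genes. The other windows are chr9:20952930-20953229 and chr9:20959839-20960138 for Dnmt1 and chr17:56303087-56303386 for Uhrf1. The printed bases thus lie after the other listed starts and are not upstream sequence for transcripts that begin there. For those transcripts the bases and the motifs in them are transcribed sequence of exons or introns, which were not marked here. A match describes these letters and is not evidence of binding.

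Dnmt1 had 136.3, 134.0, 137.3 and 136.3 RPM in null libraries A to D, against 138.4, 155.0 and 147.5 RPM in WT libraries A to C. Every null library lay below every WT library, as did 6.24% of all genes tested, but WT A was within a few RPM of the null libraries and the spread was mostly among the WT libraries. The centred change was -0.11 on the log2 scale (SE 0.04), a fold of 0.926 with a 95% interval of 0.864 to 0.993 (limma, unadjusted p = 0.0356, adjusted p = 0.352). Before centring, Dnmt1 had 136.3, 138.8, 151.0 and 150.4 deposited RPM in null libraries, against 152.7, 135.3 and 121.8 deposited RPM in WT libraries. On that scale the groups overlapped and the change was 0.08 (limma, adjusted p = 0.662). WT B and WT C, the high libraries after centring, are also those with the lowest share of reads in listed genes, and the part of that share in the Dnmt1 result was not tested. The median centred change of the 769 tested genes of like level was -0.09, beside -0.11 for Dnmt1.

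Uhrf1 gave nearly the same picture, with 79.0, 77.0, 77.4 and 81.7 RPM in null libraries, against 79.4, 91.4 and 86.4 RPM in WT libraries. Its groups overlapped, since null D lay above WT A. The centred change was -0.12 (SE 0.05), a fold of 0.920 with a 95% interval of 0.846 to 1.00 (limma, adjusted p = 0.353), beside a median of -0.09 for genes of like level, and it was -0.07 without WT B. The ratio of Dnmt1 to Uhrf1 per kb was 0.997 ± 0.025 in null libraries and 0.990 ± 0.014 in WT libraries. The 2 maintenance genes were thus nearly equal in level per kb of exon in both groups. By principal transcript length Dnmt1 had 25.3 RPM per kb and Uhrf1 21.97 in null libraries, while in WT libraries Dnmt1 had 27.4 and Uhrf1 23.9.

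**Figure D2:**
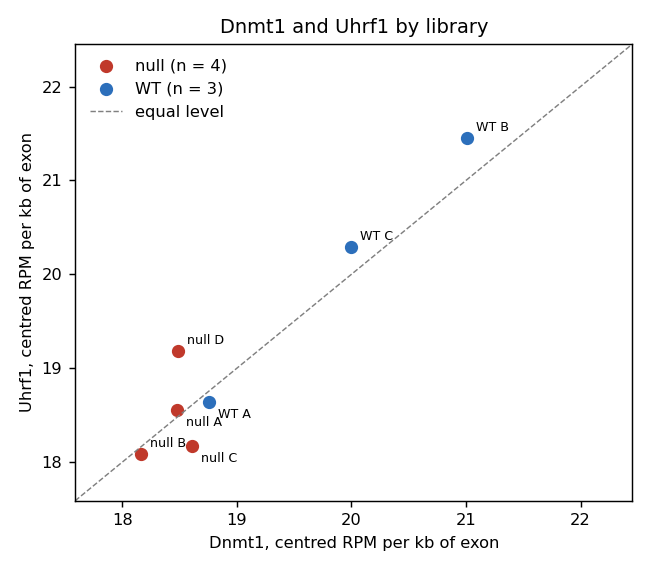
Uhrf1 level against Dnmt1 level, both in centred RPM per kb of exon, with 1 point per library and a dashed line where the levels are equal. The 4 null libraries and WT A sit together near 18 to 19 RPM per kb for both genes, and WT C and WT B lie higher along the line.

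The de novo enzymes differed by less than the spread between libraries. Dnmt3a, on chromosome 12 from 3806007 to 3914443 (plus strand), had 80.9, 99.4, 97.3 and 92.8 RPM in null libraries, against 90.7, 83.8 and 96.8 RPM in WT libraries. Null A was the lowest of the 7 libraries and null B the highest, so the WT libraries fell inside the null range. The change was 0.03 (SE 0.08), with a 95% interval of -0.15 to 0.21 (limma, adjusted p = 0.842). Dnmt3b, on chromosome 2 from 153649450 to 153687730 (plus strand), had 50.0, 52.7, 48.0 and 51.8 RPM in null libraries, against 49.0, 50.0 and 53.1 RPM in WT libraries. The groups overlapped almost fully, and the change was -0.002 (SE 0.05), with a 95% interval of -0.12 to 0.11 (limma, adjusted p = 0.983). The fit therefore leaves room for a change in Dnmt3a of either direction that is larger than one in Dnmt3b. The level of Dnmt3a relative to Dnmt3b per kb was 0.562 ± 0.052 in null libraries and 0.547 ± 0.029 in WT libraries. Of the summed Dnmt1, Dnmt3a and Dnmt3b levels per kb, Dnmt1 made up 54.4% ± 1.31 in null libraries and 56.4% ± 1.89 in WT libraries, and Dnmt3b 29.2% ± 0.99 in null libraries and 28.2% ± 0.73 in WT libraries.

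Dnmt3l, the catalytically inactive partner of the de novo enzymes, lies on chromosome 10 from 78041947 to 78063622 (plus strand) and was at the limit of detection. It had 1, 2, 3 and 7 reads in null libraries A to D, against 8, 3 and 4 reads in WT libraries A to C. A floor of 3 reads was used, which is about the 95% upper bound of the expected count where 0 reads are seen. That floor corresponds to 0.0440 to 0.0507 deposited RPM, for counting error only. The groups overlapped, no fold is given, and the gene did not pass the filter on low values. Its exons share 67 bases (2.24% of their length) with Aire, a gene on the opposite strand that is known for its role in the thymus, and the strand setting of the counting is not given in the sources used here. Aire had 13, 34, 9 and 50 reads in null libraries, against 5, 4 and 6 reads in WT libraries, and reads over the shared bases cannot be told apart. The 3 Dnmt3l promoter windows held 3 to 6 CpG dinucleotides, while every other member had at least 1 window with 17 or more, with 57 in the window of Tet2.

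The 3 Tet genes encode dioxygenases, of which TET1 and TET3 are known to have a CXXC domain that binds unmethylated CpG. Tet3, on chromosome 6 from 83362373 to 83441678 (minus strand), had 58.6, 54.6, 56.3 and 51.0 RPM in null libraries, against 63.7, 61.3 and 53.2 RPM in WT libraries. WT C lay within the null range, and the change was -0.11 (SE 0.07), with a 95% interval of -0.27 to 0.06 (limma, adjusted p = 0.462). It was -0.05 without WT A and -0.18 without WT C. Tet1, on chromosome 10 from 62804570 to 62899118 (minus strand), had 27.8, 29.2, 25.5 and 37.4 RPM in null libraries, against 29.0, 24.3 and 31.1 RPM in WT libraries. Null D was the highest library by a wide margin and the other 3 null libraries lay within the WT range. The change was 0.08 (SE 0.14), with a 95% interval of -0.23 to 0.39 (limma, adjusted p = 0.755).

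Tet2, on chromosome 3 from 133463679 to 133544390 (minus strand), was the most variable of the 7 tested members. It had 8.40, 10.7, 12.01 and 16.5 RPM in null libraries A to D, against 11.3, 6.52 and 10.8 RPM in WT libraries A to C. Null D was the highest and WT B the lowest of the 7 libraries, and the groups overlapped. The change was 0.31 (SE 0.26), a fold of 1.24 with a 95% interval of -0.27 to 0.90 on the log2 scale (limma, adjusted p = 0.521). Without WT B the Tet2 change was 0.06, that of Tet1 -0.02 and that of Dnmt1 -0.07. The lowest library held 373 reads, for which counting error alone is 5.18% of the value. The residual SD between libraries of 1 group was 0.42 on the log2 scale, above that of 94.9% of tested genes of like level, whose median was 0.13. Dnmt1 had the lowest residual SD of the 7 tested members, 0.05, beside a median of 0.07 for tested genes of its own level. WT B, lowest in Tet2, also had 200 reads of Cyp26a1, a retinoic acid degrading enzyme of the tailbud, where the other 2 WT libraries had 2033 and 2391 and the null libraries 2497 to 3100. The part of such tissue differences in the Tet2 values was not tested.

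Among the Tet genes, Tet3 made up 55.8% ± 5.85 of the summed level per kb in null libraries and 59.9% ± 5.32 in WT libraries. By library its share was 60.5%, 56.4%, 58.8% and 47.3% in null libraries, against 59.9%, 65.2% and 54.6% in WT libraries. Tet1 held 32.5% ± 3.72 in null libraries and 30.6% ± 3.39 in WT libraries. Tet2 held 8.57%, 10.9%, 12.4% and 15.1% in null libraries, against 10.5%, 6.87% and 11.0% in WT libraries. Null D had the lowest Tet3 share and the highest Tet2 share, and the groups overlapped for all 3 genes. With principal transcript lengths, Tet3 made up 73.3% ± 5.02 in null libraries and 76.9% ± 4.16 in WT libraries. The summed level of the 3 methyltransferases was 5.71 ± 0.30 times that of the 3 Tet genes in null libraries and 5.96 ± 0.57 times in WT libraries, per kb of exon.

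**Figure D3:**
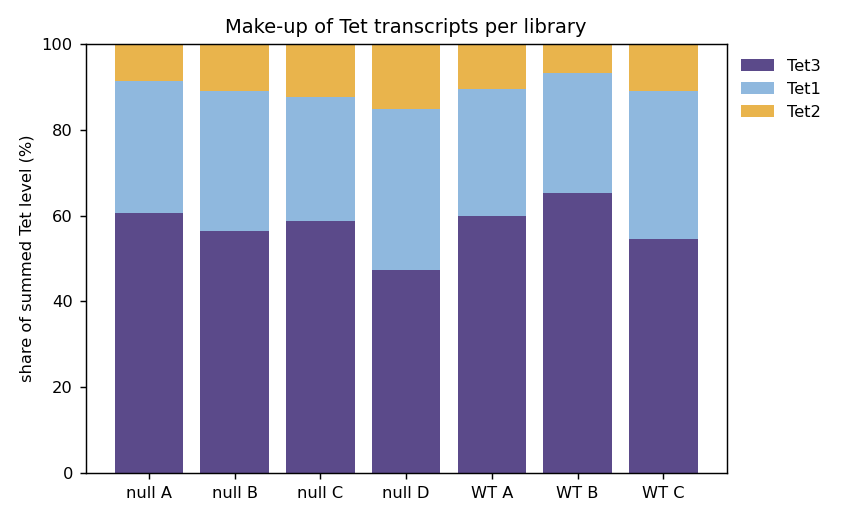
Share of Tet3, Tet1 and Tet2 in the summed Tet level of each library, in percent of centred RPM per kb of exon, with the 4 null libraries left of the 3 WT libraries. Tet3 takes the bottom and largest part of each bar, from 47.3% in null D to 65.2% in WT B, and Tet2 the top and smallest part.

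**Figure D4:**
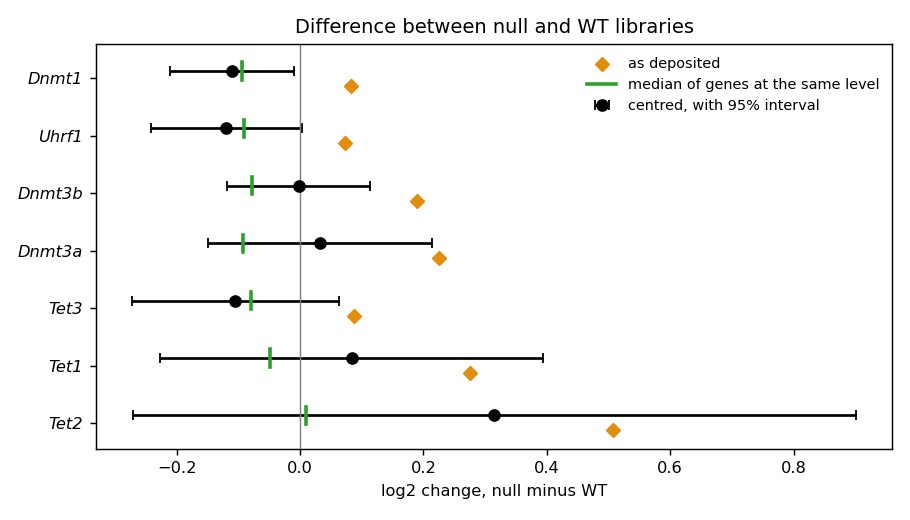
Change of the 7 tested genes on the log2 scale, null minus WT, with the centred estimate and its 95% interval (black), the estimate on deposited values (orange) and the median change of genes at the same level (green). Only the interval of Dnmt1 stays below 0 in the centred fit, and all 7 deposited estimates lie to the right of 0.

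For each tested member the genes with the most similar centred profile over the 7 libraries were looked up among the other 13996 tested genes. The best Pearson r that a tested gene finds in this way has a median of 0.988, so close matches are common over so few libraries. The close matches of Dnmt1 included Samd4b (r = 0.995) and Stoml2, and those of Uhrf1 included Ruvbl2 (r = 0.996) and Sars. Tet2 was matched by Aldh1a1 (r = 0.993), Dhrs3 and Npc1. The remaining members had best matches below the median of all genes. These were Fam151a (r = 0.982), Sorbs3 and 9930012K11Rik for Dnmt3a, Acsbg1 (r = 0.977), Lsr and Slc39a2 for Dnmt3b, Rnf19a (r = 0.980), Klf12 and Zfp93 for Tet1, and Kansl2 (r = 0.982), Gm17344 and Cit for Tet3. Among the members, Tet1 and Tet2 had r = 0.79, and Tet1 and Tet3 had r = -0.69, all over the same 7 libraries.

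Partners in maintenance did not pass the test in either direction. All 7 were tested (Uhrf2, Hells, Cdca7, Cdca7l, Usp7, Pclaf and Lig1), 0 were called, and all 7 had a centred change below 0, as did 57.5% of all genes tested. Their median was -0.11, beside -0.03 for all genes tested and -0.09 for genes of like level. Of the 7, 5 lay below the median of genes at their own level. On the deposited scale all 7 were above 0. Hells, a chromatin remodeller needed for normal methylation, averaged 88.1 ± 3.47 RPM in null libraries and 95.2 ± 5.78 RPM in WT libraries, a change of -0.11 (limma, adjusted p = 0.359). Cdca7l, a relative of the Hells cofactor Cdca7, averaged 35.97 ± 1.66 RPM in null libraries and 39.3 ± 2.91 RPM in WT libraries, a change of -0.13 (limma, adjusted p = 0.367). The genes of S phase, during which maintenance methylation takes place, had centred changes of the same direction. Of the 16 listed, 0 were called, all 16 were below 0 after centring (57.5% of all genes tested were), and 14 of the 16 were above 0 as deposited. Their median was -0.14, beside -0.07 for genes of like level, and 14 of the 16 lay below the median of genes at their own level. The lowest p-values belonged to Cdc6, a replication licensing factor, at -0.22 (limma, adjusted p = 0.312) and Mcm3, a subunit of the replicative helicase, at -0.17 (limma, adjusted p = 0.352). The part of the S phase genes in the Dnmt1 and Uhrf1 values was not tested.

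Of the 11 genes that guide de novo methylation or protect imprints, 0 were called and 10 were below 0 after centring. Their median was -0.10, beside -0.09 for genes of like level, and 7 of the 11 lay below the median of genes at their own level. Trim28, the corepressor that KRAB zinc finger proteins recruit to imprints, averaged 107 ± 3.68 RPM in null libraries and 121 ± 11.1 RPM in WT libraries, a change of -0.17 (limma, adjusted p = 0.352). Nsd1, which methylates histone H3 lysine 36 and so marks intergenic regions for DNMT3A, averaged 117 ± 6.16 RPM in null libraries and 128 ± 5.92 RPM in WT libraries, a change of -0.14 (limma, adjusted p = 0.352). Neither list nor gene gave a call on the deposited scale, where all 11 were above 0. The 5 binders of unmethylated CpG had 0 calls and a median of -0.11, beside -0.09 for genes of like level. Kmt2a (listed under its older name Mll1), a histone H3 lysine 4 methyltransferase, had a value of -0.13 (limma, adjusted p = 0.352), and Cxxc1, a subunit of related methyltransferase complexes, one of -0.15 (limma, adjusted p = 0.352).

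In the demethylation list 17 of 20 genes were tested, 1 was called higher and the median was 0.04, with 10 genes above 0. The call was Ogt, the X-linked enzyme that adds N-acetylglucosamine to proteins and binds TET proteins. It averaged 157 ± 2.54 RPM in null libraries and 111 ± 2.21 RPM in WT libraries, and every null library lay above every WT library, as was so for 6.51% of all genes tested. The log2 change of Ogt was 0.50, with an SE of 0.03, and passed the test (limma, adjusted p = 0.00123), and it was called under every alternative tried except the deposited scale, where the adjusted p was 0.0567. The glycosylases of the list were not called.

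The 10 readers of methylated CpG had 0 calls and a median of -0.03, equal to that of all genes and beside -0.055 for genes of like level. Of the 10, 3 lay below the median of genes at their own level. Zbtb33, the X-linked gene of the reader Kaiso, averaged 32.2 ± 1.92 RPM in null libraries and 27.7 ± 1.40 RPM in WT libraries. Every null library lay above every WT library, as was so for 6.51% of all genes tested. The change of Zbtb33 was 0.21 (limma, adjusted p = 0.333). Mbd3, a subunit of the NuRD complex, averaged 46.3 ± 1.53 RPM in null libraries and 50.6 ± 3.50 RPM in WT libraries, a change of -0.13 (limma, adjusted p = 0.353). The 11 genes of methyl donor metabolism, which supply S-adenosylmethionine, had 0 calls and a median of -0.06, equal to that of genes of like level. All 11 were below 0 after centring and all 11 above 0 as deposited, while cyclic loess put 7 below and 4 above. Mthfd2, a mitochondrial folate enzyme, gave -0.18 (limma, adjusted p = 0.352) and Mat2a, which makes S-adenosylmethionine, gave -0.15 (limma, adjusted p = 0.367).

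Germline genes whose promoters are kept silent by methylation in somatic cells were mostly near the limit of detection. Only 3 of 21 passed the filter, and 0 were called. Sycp3, a component of the synaptonemal complex, had 131 to 159 reads in null libraries, against 71 to 119 reads in WT libraries, a centred change of 0.49 (limma, adjusted p = 0.352). Sycp1, of the same complex, gave 0.41 (limma, adjusted p = 0.387) and Tdrd1, a piRNA pathway gene, gave 0.03. Summed over all 21 genes, the level was 9.47 to 11.3 RPM in null libraries and 8.47 to 10.1 RPM in WT libraries, and these ranges overlapped. Markers of primordial germ cells summed to at least 16.7 RPM in each null library and 7.56 to 19.13 RPM in WT libraries. The groups overlapped in this sum. Prdm1 had the highest level of these markers, averaging 9.63 RPM in null libraries and 6.59 RPM in WT libraries, followed by Ifitm3 at 3.96 and 3.85 RPM. Dppa3, Nanos3 and Prdm14 did not pass the filter. They averaged 0.41, 0.60 and 0.44 RPM in null libraries, against 0.22, 0.60 and 0.30 RPM in WT libraries. Of the 4 tested, 3 had changes above 0 and 1, Dnd1, below 0, and 0 were called. The part of these markers in the Sycp3 value was not tested.

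**Figure D5:**
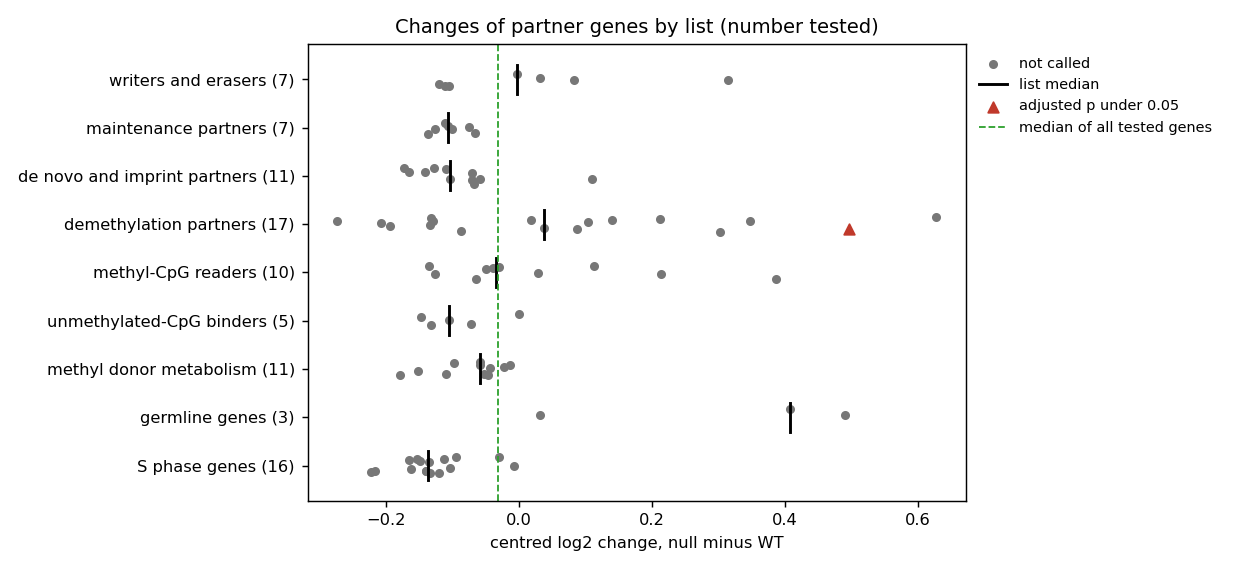
Centred change on the log2 scale, null minus WT, of every tested gene in the 8 partner lists and the writers and erasers, with 1 point per gene, a black bar at each list median and a dashed line at the median of all tested genes, -0.03. Ogt, at 0.50, is the single gene past an adjusted p of 0.05 (triangle), and the S phase genes lie furthest left, with a median of -0.14.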

How the data were processed

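RNA-seq was analysed for 7 libraries, 4 null and 3 WT. The authors deposited log2 RPM values for 25965 rows, per the file headers. The submitters' processing notes name mm10, edgeR, TopHat2 2.0.12 and bcl2fastq. How reads were counted, with which strand setting and gene models, is not given in the sources used here. Since a column shows its genotype and not which sample it is, libraries were lettered in file order. The sample labels give 4 null samples and the series design text 3. Whole reads were recovered, since 100% of 88203 values below 1000 reads were whole within 0.01, and a gene with no read is listed at 0.9 read.

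The filter asked for 3 or more libraries with a log2 value over 0 (13997 genes, 496 of them X-linked), and each library was centred on its autosomal median. Genotype was tested with limma 3.58.1 (R 4.3.3) with a prior trend, two-sided, and Benjamini-Hochberg adjustment at 0.05. The same code was tested on simulated data. Exon lengths came from the GENCODE M21 annotation of mm10, and promoters from RefSeq. Python 3.11.15, pandas 2.3.3 and matplotlib 3.10.9 made the tables and figures. From each list, up to 4 genes past the threshold, or the 2 with the lowest p where none passed, were named. Cyp26a1 and Aire were chosen for naming with their values in view. Some genes that this rule or the profile matches would name are not reported here. The members, lists and tests were chosen with earlier results of these data known, and no set test was run. Alternatives were other scalings, filters, variance models, a pseudocount of 1 RPM, voom on recovered reads, a block on the last number in the column names, and leaving out each library. Principal transcript lengths and the medians of genes of like level were added after seeing the data.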

Additional observations from a re-analysis of the deposited data

How the results depend on the processing

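No member was called under any of the 20 alternatives, and the lowest adjusted p was 0.169, for Dnmt1 (limma). On deposited values with no centring the changes were 0.082 for Dnmt1, 0.073 for Uhrf1, 0.19 for Dnmt3b and 0.087 for Tet3, all above 0, where the median of all genes was 0.16. Cyclic loess put the median of all genes at -0.01, called 18 genes higher and gave -0.01 for Dnmt1, -0.04 for Uhrf1 and 0.063 for Dnmt3b. Quantile normalization called 15 higher and gave 0.059 for Dnmt3b. Dnmt3b also turned positive with a pseudocount (0.0055), the stricter filter (0.011), the filter in every library (0.0087), voom (0.041) and a block on the number in the column names (0.0041). Voom called 11 genes higher and array weights 12, with Tet1 at -0.018 under array weights. The causes were not tested. Leaving out each library in turn gave 3 to 9 higher calls (3 without null B, WT A or WT C and 4 without null D, against 7 with all libraries), and changes of -0.022 to 0.096 for Dnmt3a, -0.026 to 0.031 for Dnmt3b, -0.028 to 0.16 for Tet1 and -0.18 to -0.05 for Tet3. The 1 lower call, Smchd1, was made under every alternative. Tet2 ranged from 0.06 to 0.51 (limma, adjusted p from 0.252 to 0.946). No paired analysis was possible because the columns carry no sample number to match with the replicate numbers of the labels. The block on the column number, which is not such a pairing, gave -0.10 for Dnmt1 and 0.29 for Tet2 (limma, adjusted p = 0.225 and 0.252). A few libraries, a fold interval of several percent for the steadiest member and single-digit reads for Dnmt3l limit what can be seen.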

Other observations

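The last number in each column name (18, 21 or 22) is not explained in the sources used here, and each value occurs in both groups. Comparing null with WT libraries of the same number, Tet2 differed by 0.36 log2 units at 18, 0.60 at 21 and 0.00 at 22, where the 2 null libraries are set against 1 WT library. Tet1 differed by 0.19, 0.27 and -0.09 in the same order, and Dnmt1 by -0.19, -0.11 and -0.03. Within each group the library numbered 18, which is null A and WT B, had the lowest Tet2 level, at 8.40 RPM in null A and 6.52 RPM in WT B. With 1 or 2 libraries per number and group, these are values with no test. The first number in the column names, likewise unexplained, is 4180 in null D, WT B and WT C and 4168 in null B and null C. It is 4159 in null A and 4121 in WT A. Null B and null C thus share both the first number and the last number, 22.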
